A study of Mus musculus and Rattus norvegicus with 96 samples.

Results

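FR > FFPE liver is tissue that was frozen, then kept in 10% neutral buffered formalin for 18 to 24 h and embedded in paraffin. It was compared with frozen tissue (FR) of the same livers, to ask what formalin and embedding leave in the RNA profile of tissue that was no longer alive when it met the fixative. The members are the 24 libraries labelled with these preparations, 12 FR and 12 FR > FFPE, of 96 libraries in the series, and they form 12 pairs by mouse. All mice were male B6C3F1 animals of 10 to 11 weeks. In 6 of them the drinking water held phenobarbital (PB) at 600 ppm for 7 days, and the other 6 drank water alone (Con), so each of the 4 groups had n = 6 libraries. Both preparations gave stranded total RNA libraries from 100 ng of RNA after removal of ribosomal RNA with Ribo-Zero. FR tissue was extracted with RNAzol and embedded tissue with an AllPrep FFPE kit, from 2 curls of 10 µm, and the fragmentation time was shortened for embedded tissue. The number after the letter L in the sample titles was taken to be the lane of the sequencer. This reading is uncertain, since 9 or 10 of the 48 liver libraries of mice share each number and the protocol gives 8 to a lane. By it, FR Con libraries were on lane 2, FR PB libraries on lanes 2 and 3 (2 and 4 libraries), FR > FFPE Con on lane 3 and FR > FFPE PB on lane 4. In the comparison with FR, fixation, embedding, extraction and fragmentation therefore cannot be told apart. Lane number can be separated from them in Con mice only, and only through the 6 FR PB libraries. In PB mice, and so in the average over all mice, it cannot, since lane 4 holds no other of the 24 libraries.

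Formalin preserves tissue by forming adducts and cross-links in proteins and nucleic acids, and RNA released from a paraffin block is fragmented and partly modified. Among the most abundant messages of liver are those of proteins that hepatocytes secrete into plasma, beside the enzymes of intermediary and drug metabolism. Ribosomal RNA precursors and many long noncoding RNAs remain in the nucleus, where they are held in large complexes with protein.

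Sequences are shown first for the transcripts at both ends of the comparison. The mature strand of miR-6236, with its seed (bases 2 to 8) in capitals, is shown because its locus is one of 3 rRNA-derived loci that rose, although libraries of total RNA do not measure the mature strand itself. It lies at chr9:110281353-110281371 on the plus strand of GRCm38, inside the locus counted as Mir6236, and the sequence is from RefSeq on GRCm38.p6.
mmu-miR-6236: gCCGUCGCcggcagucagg

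The next sequences are coding bases with G and C in capitals, from GENCODE M21 on GRCm38. Adrb3 (chromosome 8, minus strand) and Col27a1 (chromosome 4, plus strand) had the highest coding GC content among the large rises reported here, 63.4% and 62.4%. The middle 90 bases of each coding part are given, bases 556 to 645 of Adrb3 and 2722 to 2811 of Col27a1. Atp5k (chromosome 5, minus strand) and Cox7c (chromosome 13, minus strand) fell most among genes of at least 10 CPM that were lower in every mouse, and their coding parts are given whole without the stop codon, at 213 and 189 bases. The coding part of Adrb3 has 1200 bases and that of Col27a1 5535.
Adrb3: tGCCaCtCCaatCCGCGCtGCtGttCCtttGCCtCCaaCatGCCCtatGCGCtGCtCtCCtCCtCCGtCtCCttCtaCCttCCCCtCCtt
Col27a1: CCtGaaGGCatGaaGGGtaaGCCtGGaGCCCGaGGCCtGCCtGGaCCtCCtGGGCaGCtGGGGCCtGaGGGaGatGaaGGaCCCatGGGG
Atp5k: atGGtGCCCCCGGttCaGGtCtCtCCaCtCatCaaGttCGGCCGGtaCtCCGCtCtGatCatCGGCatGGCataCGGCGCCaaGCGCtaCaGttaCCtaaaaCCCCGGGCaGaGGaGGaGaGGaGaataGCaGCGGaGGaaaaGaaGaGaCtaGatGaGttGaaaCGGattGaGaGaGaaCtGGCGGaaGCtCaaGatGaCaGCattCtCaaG
Cox7c: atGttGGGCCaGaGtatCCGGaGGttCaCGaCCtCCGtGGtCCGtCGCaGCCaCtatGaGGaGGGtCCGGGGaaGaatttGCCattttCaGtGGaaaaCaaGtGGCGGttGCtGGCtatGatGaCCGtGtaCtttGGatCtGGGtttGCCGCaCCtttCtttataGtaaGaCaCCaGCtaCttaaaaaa

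FR libraries held 11737338 to 13702672 counts on genes and FR > FFPE libraries 5534973 to 10681783, without overlap. The lowest total belonged to FR > FFPE Con mouse 21C, and the next lowest was 8812962. At these depths 1 CPM, a count per 1000000 counts on genes, stands for 5.53 to 13.7 counts. Counts on genes were 46.6% to 51.8% of total reads in FR (median 48.1%) and 31.7% to 40.5% in FR > FFPE (median 37.3%), lower in 12 of 12 mice (exact sign-flip permutation test of the 12 paired differences, two-sided, adjusted p = 0.00076 over 28 library measures). Total reads were not read directly but inferred, as the divisor that links the deposited counts to the authors' CPM. At equal depth FR > FFPE libraries showed more genes with at least 5 counts, 12305 to 12696 against 12016 to 12271. The 50 genes most abundant in FR took 36.7% to 41.4% of the counts in FR and 29.6% to 36.2% in FR > FFPE, lower in 12 of 12 mice. Choosing them by FR levels can by itself lower their share in the other preparation.

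Most genes were measured somewhat higher in FR > FFPE, relative to the total on genes, and few were lower by a large factor. edgeR's quasi-likelihood test, with mouse as a block, called 883 of 13370 genes DEGs, that is genes that changed at least 2-fold with an adjusted p under 0.05, or 6.60% of the genes tested. Of these, 877 were higher in FR > FFPE (6.56%) and 6 were lower (0.0449%). Over all genes tested, the log2 fold change had a median of 0.34. It depended on the library size chosen, since TMM scaling, which sets the bulk of genes near no change, gave 0.03, and scaling to the total reads gave −0.05. Changes are therefore read below against the median of all genes, and TMM values stand beside them.

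With TMM scaling 362 genes were DEGs (2.71%), 292 higher and 70 lower, and scaling to total reads gave 342 (2.56%), 217 higher and 125 lower. The first scaling and TMM shared 298 DEGs with the same direction. Of the 877 higher DEGs, 644 were higher in all 12 mice and 400 had groups that did not overlap, where 14.9% of all genes tested did not overlap. Among the 6 lower DEGs 2 were lower in every mouse. Without the fold change criterion, 8477 genes passed as higher (63.4%) and 1606 as lower (12.01%) by the total on genes, together 75.4%. With TMM these were 4505 (33.7%) and 4171 (31.2%), together 64.9%.

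**Figure D1:**
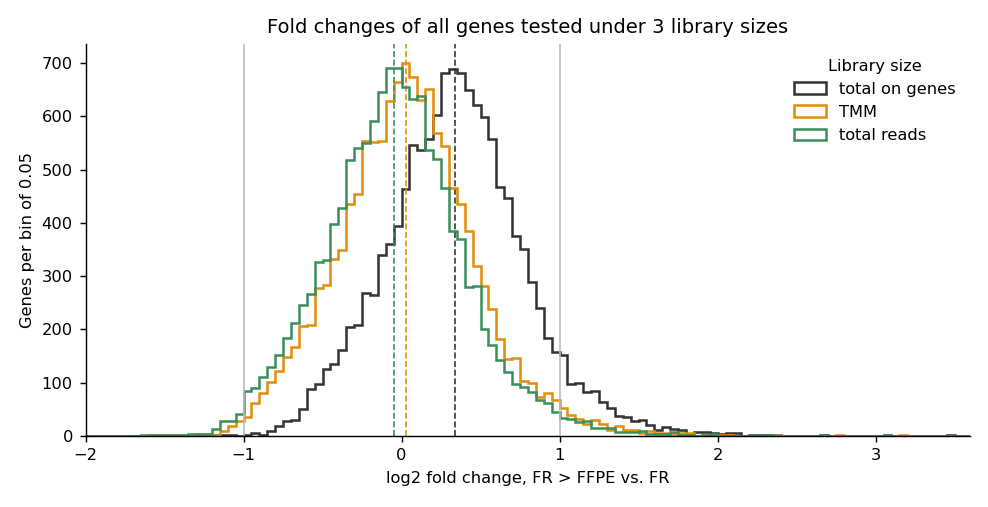
Number of genes (y axis) by log2 fold change of FR > FFPE vs. FR (x axis) for the 13370 genes tested under 3 library sizes, with dashed lines at the medians (0.34, 0.03 and −0.05) and grey lines at a fold change of 2. The 3 distributions differ by a shift, with few genes beyond the left grey line under any of them.

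Within single mice, the median log2 ratio over 8230 genes of at least 10 CPM on average in either preparation ran from 0.20 to 0.40 (median 0.29), with mouse 21C the lowest. Con mice gave 766 DEGs (754 higher, 12 lower; 5.73% of genes) and PB mice 1115 (1105 higher, 10 lower; 8.34%). They shared 559 with the same direction, 73% of the Con DEGs and 50.1% of the PB DEGs. The difference between the treatments was tested as an interaction, and edgeR called 0 genes, with 1313 at an unadjusted p under 0.05 and 1004 with TMM. The smallest adjusted p was 0.106, for Neat1, a noncoding scaffold of nuclear paraspeckles, whose log2 fold change was 1.05 in Con and 1.48 in PB mice. With lane number in place of mouse in the fit, the Con comparison gave 605 DEGs (4.53%), 521 higher and 84 lower. That fit separates lane from preparation only through 2 FR PB libraries on lane 2 and 4 on lane 3, from different mice, and 45 of the 90 genes named for this comparison and called in Con mice lost their call in it.

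Among the gene lists, ribosomal RNA-derived loci had the largest median rise, 1.99 above that of all genes on the log2 scale. Rn45s, the precursor of the large ribosomal RNAs (chromosome 17, 39842997 to 39848829 of GRCm38), had 4206 to 13055 CPM in FR (median 6040) and 22316 to 51274 CPM in FR > FFPE (median 31278). The groups did not overlap, and the highest FR library was that of PB mouse 75C. The log2 fold change of Rn45s was 2.29 (edgeR adjusted p = 6.1e-18, SE 0.09), and it was 1.98 with TMM. The precursor holds the mature sequences, so these counts do not tell precursor from mature ribosomal RNA left after Ribo-Zero. The part of each was not tested.

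Lars2 codes for the mitochondrial leucyl-tRNA synthetase (chromosome 9, 123366927 to 123462675). It is counted here among the 3 rRNA-derived loci, and reads of its message and of ribosomal RNA were not told apart. It had 67.2 to 266 CPM in FR (median 83.5) and 444 to 1044 CPM in FR > FFPE (median 644), again without overlap. At 2.70 (edgeR adjusted p = 3.97e-16, SE 0.13) its log2 fold change was the largest among genes of at least 10 CPM that moved alike in every mouse. Mir6236 (chromosome 9, 110281287 to 110281409), which holds the miRNA printed above, rose from a median of 6.21 CPM in FR (1.44 to 28.9) to 31.3 CPM (24.3 to 60.1). FR PB mouse 75C, at the top of FR, lay within the range of FR > FFPE. In the fit with lane number, Mir6236 was at 1.11 in Con mice and lost its call (edgeR adjusted p = 0.366). These are total RNA libraries, so reads at Mir6236 count the locus and not the mature miRNA. The 3 loci together took 0.428% to 1.33% of counts in FR and 2.30% to 5.23% in FR > FFPE, a 4.80-fold ratio of means, higher in 12 of 12 mice. Leaving out mouse 21C, the highest FR > FFPE library, Rn45s had a log2 fold change of 2.24.

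**Figure D2:**
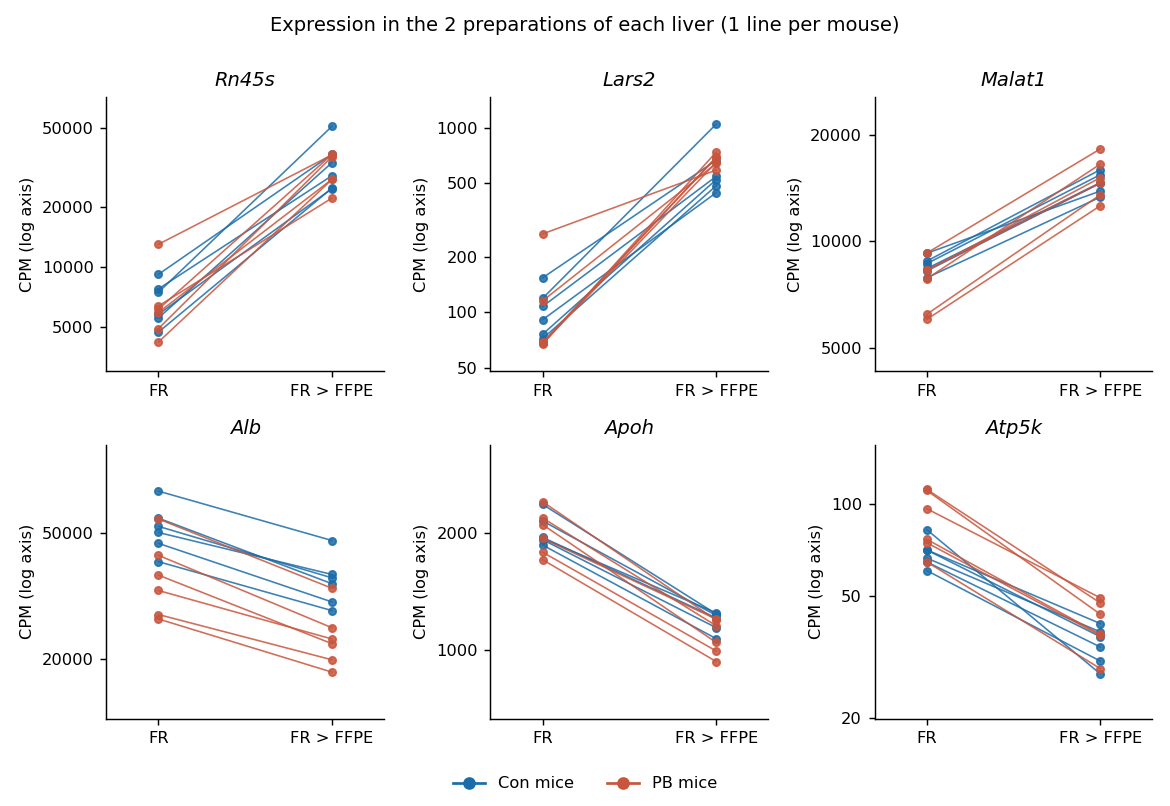
CPM (log axes) of 6 genes in the FR and FR > FFPE libraries of each mouse, with 1 line per mouse and Con and PB mice in separate colours. Rn45s, Lars2 and Malat1 rise and Alb, Apoh and Atp5k fall along all 12 lines, and FR PB mouse 75C is the high FR point of Rn45s and Lars2.

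Nuclear-retained long noncoding RNAs rose together. Of 13 list members tested, 13 passed as higher by the total on genes and 12 with TMM, where 63.4% and 33.7% of all genes did, and their median log2 fold change lay 0.66 above that of all genes. Malat1, an abundant noncoding RNA of nuclear speckles (chromosome 19, 5795690 to 5802672), had 6022 to 9266 CPM in FR (median 8284) and 12612 to 18253 CPM in FR > FFPE (median 14648). The groups did not overlap, and the log2 fold change was 0.88 (edgeR adjusted p = 3.87e-18, SE 0.03; 0.57 with TMM). Neat1 rose by 1.27 on the log2 scale (0.96 with TMM), from a median of 1541 CPM to 3527 CPM, with ranges that overlapped and wide differences between mice, 772 to 3377 CPM in FR. In Con mice it was at 1.05, and at 0.38 in the fit with lane number, where it was not called (edgeR adjusted p = 0.505). Firre, an X-linked RNA that shapes nuclear chromatin, had 15.4 to 27.4 CPM in FR and 47.8 to 93.9 CPM in FR > FFPE.

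The antisense and imprinted RNAs of the list behaved alike in sign and less alike in size. Kcnq1ot1, which silences its imprinted cluster, rose by 0.99 (143 to 300 CPM in FR, 313 to 524 CPM in FR > FFPE, no overlap), and Jpx, an activator of Xist, by 1.32. Snhg11, Meg3 and Tsix rose by 1.65, 1.43 and 1.25, with overlapping groups, and Meg3 and Tsix were higher in 11 of 12 mice. Airn, Ftx, Snhg14 and Peg13 rose by 1.00, 0.84, 0.81 and 0.58. Rian rose by 0.57 (edgeR adjusted p = 0.0055), but at 0.26 it did not pass with TMM (adjusted p = 0.19). Whether the authors' counting used the strand is not given in the sources used here, so Tsix and Airn, each antisense to another gene, are uncertain. The list as a whole took 0.746% to 1.20% of counts in FR and 1.73% to 2.18% in FR > FFPE, without overlap. Beyond the list, 112 of 144 tested lincRNAs and 85 of 118 antisense transcripts of the GENCODE annotation passed as higher by the total on genes, and 1 of each as lower, with medians 0.42 above that of all genes. With TMM 82 lincRNAs and 64 antisense transcripts passed as higher, and 7 and 3 as lower. The shares of all genes that passed as higher were 63.4% by the total on genes and 33.7% with TMM.

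Small RNAs did not move as a block. Of 119 annotated small nucleolar and Cajal body RNAs, which guide modification of other RNAs, 43 were at 0 in all 24 libraries and 30 were tested. They divided into 14 higher and 6 lower by the total on genes and 10 higher and 9 lower with TMM, where 63.4% and 12.01% of all genes, or 33.7% and 31.2% with TMM, passed. Their median lay 0.22 above that of all genes, and 0.062 above without mouse 21C. The summed share of the list went the other way, 0.0483% to 0.0946% of counts in FR and 0.0376% to 0.0835% in FR > FFPE. It was lower in 11 of 12 mice (exact sign-flip permutation test, adjusted p = 0.00195). Snord17 fell by 0.91 on the log2 scale, from a median of 296 CPM (213 to 356) to 161 CPM (67.3 to 259), and Snora74a fell by 0.67, whereas Snord16a rose by 1.62 from a median of 0.25 CPM to 1.00 CPM. Mature RNAs of this size are poorly recovered in libraries of this kind, and reads of their host introns cannot be told apart from them. Among 8 small structured RNAs tested, 4 were higher and 0 lower by the total on genes and 1 higher and 3 lower with TMM, beside 63.4% of all genes higher by the total on genes and 31.2% lower with TMM. Rnu11, an RNA of the minor spliceosome, rose by 1.78 (1.48 with TMM) at no more than 1.64 CPM. Rpph1, the RNA of RNase P, had a median of 3544 CPM in FR and 3506 CPM in FR > FFPE, higher in 6 of 12 mice. Rmrp, the RNA of RNase MRP, had medians of 1485 and 1634 CPM. Neither differed by the total on genes (log2 fold changes of 0.03 and 0.05, edgeR adjusted p = 0.619 and 0.365), and both were lower with TMM, at −0.28 and −0.26 (adjusted p = 0.000297 for each).

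The other large rises were in protein-coding genes that liver expresses at low levels. Fam193b rose from a median of 13.8 CPM (9.85 to 22.6) to 70.7 CPM (54.2 to 137), by 2.36 on the log2 scale (edgeR adjusted p = 3.26e-19, SE 0.08), and FR > FFPE Con mouse 21C was the highest of its group. Grik5, a kainate glutamate receptor subunit, rose from 2.69 to 12.1 CPM and Chrna4, a nicotinic acetylcholine receptor subunit, from 8.04 to 32.9 CPM (medians of 12 libraries). Adrb3, the beta-3 adrenergic receptor, rose from 8.86 to 39.2 CPM, Col27a1, a fibrillar collagen, from 11.7 to 48.4 CPM, and Klhdc8b, a kelch-domain protein, from 2.80 to 11.8 CPM. The log2 fold changes of these 5 genes were 1.97 to 2.21 (1.66 to 1.90 with TMM). Only the ranges of Chrna4 overlapped, and every gene was higher in all 12 mice. Higher DEGs had a median of 2.07 CPM in FR, where all tested genes had 12.8 CPM, but the FR level also enters the fold change.

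Messages of secreted hepatocyte proteins fell as a group. Of 42 tested, 39 passed as lower and 1 as higher by the total on genes, and 42 as lower with TMM, where 12.01% and 31.2% of all genes were lower. Their median lay 0.89 below that of all genes. Their share of counts was 21.9% to 28.6% in FR and 14.5% to 20.9% in FR > FFPE, lower in 12 of 12 mice. In bulk tissue, fewer cells of a type and less RNA per cell cannot be told apart. Apoh, the plasma beta-2-glycoprotein I (chromosome 11, 108395297 to 108414396), had 1706 to 2402 CPM in FR (median 1941) and 936 to 1247 CPM in FR > FFPE (median 1175). No FR > FFPE library reached the lowest FR library, and the log2 fold change was −0.83 (edgeR adjusted p = 9.44e-18, SE 0.03; −1.14 with TMM).

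Hpx, the haem carrier haemopexin, fell by 0.95, from a median of 9258 CPM to 5150 CPM, and Ttr, the thyroid hormone carrier transthyretin, by 0.82, from 4656 to 2631 CPM. Their groups overlapped, with wide differences between mice (3277 to 17697 CPM of Hpx in FR), while all 12 mice moved down. Alb, which codes for albumin and was the most abundant gene of FR (chromosome 5, 90460870 to 90476602), had 26752 to 67527 CPM in FR (median 44344) and 18204 to 47210 CPM in FR > FFPE (median 29339). In each mouse Alb was lower, by 0.59 on average on the log2 scale (edgeR adjusted p = 7.74e-15, SE 0.03). Trf (transferrin), Serpina3k, Fga (fibrinogen alpha), Mup7, Mup15, Gm2083 and Serpina1e, the other abundant genes, fell by 0.29 to 0.67 and by 0.60 to 0.98 with TMM. In the fit with lane number the values of Con mice spread. Mup7, Mup15 and Gm2083 were at 0.03, 0.21 and 0.41, and Alb, Ttr, Serpina3k and Serpina1e at −0.40, −0.52, −0.29 and −0.06, and none of these 7 was called. Hpx, Fga and Trf were called at −2.57, −1.40 and −1.19. Apob, the large apolipoprotein of lipoprotein particles, stood apart from them. It had 19594 to 24391 CPM in FR (median 23322) and 20490 to 24310 CPM in FR > FFPE (median 22966), was higher in 6 mice and lower in 6, and had a log2 fold change of −0.01 (edgeR adjusted p = 0.691). Its transcript is 13934 bases long. With TMM it was lower, at −0.32 (adjusted p = 3.32e-07).

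Rarres2, which codes for the secreted chemoattractant chemerin, had 254 to 408 CPM in FR (median 294) and 131 to 197 CPM in FR > FFPE (median 157). Its groups did not overlap, and neither did those of Tmem205, a membrane protein gene (229 to 373 and 126 to 199 CPM). The log2 fold changes were −0.95 for Rarres2 and −0.81 for Tmem205. Fkbp11, a prolyl isomerase of the endoplasmic reticulum, fell by 0.84 from a median of 16.0 CPM to 8.59 CPM, with overlapping groups.

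Major urinary proteins are pheromone carriers that the liver of male mice makes in large amounts, from near-identical genes whose reads can be split between copies. Of 20 tested, 17 passed as lower, among them Mup3, which fell by 0.52 (4943 to 8379 CPM in FR, 3315 to 5426 CPM in FR > FFPE), and 3 as higher (2 with TMM). Shares over all genes tested were 12.01% lower and 63.4% higher by the total on genes, and 31.2% and 33.7% with TMM. Mup10 had 195 to 433 CPM in FR (median 292) and 236 to 1159 CPM in FR > FFPE (median 663), higher in 12 of 12 mice, with a log2 fold change of 1.16 (0.85 with TMM). Mup5 rose by 1.82 (1.52 with TMM) at levels of at most 2.27 CPM. The direction of any single copy is uncertain for this reason.

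Messages of the respiratory chain and of ribosomes were mostly lower. By the total on genes 12.01% of all genes tested were lower and 63.4% higher, and with TMM 31.2% and 33.7%. In respiratory complex I, which passes electrons from NADH to ubiquinone, 36 of 38 genes were lower and 1 higher by the total on genes, and 37 were lower with TMM. Their median lay 0.82 below that of all genes, and their summed share fell from 0.185% to 0.260% of counts in FR to 0.137% to 0.182%, without overlap. Ndufs8 and Ndufv3 each fell by 0.63 without overlap of the groups, and Ndufs5 by 0.71. In complexes II to V 34 of 39 genes were lower and 2 higher (38 and 0 with TMM), with a median 0.73 below.

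Atp5k, the e subunit of ATP synthase (chromosome 5, 108433253 to 108434378), had 60.6 to 112 CPM in FR (median 72.7) and 27.8 to 49.3 CPM in FR > FFPE (median 37.3). The groups did not overlap and the log2 fold change was −1.05 (edgeR adjusted p = 2.25e-16, SE 0.05; −1.36 with TMM). Cox7c, a small subunit of cytochrome c oxidase, had 11.8 to 20.3 CPM in FR (median 15.9) and 4.63 to 13.0 CPM in FR > FFPE (median 7.04), lower in 12 of 12 mice, with a log2 fold change of −1.08. Atp5e, the epsilon subunit, fell by 0.76. Atp5k and Cox7c were 2 of the 6 lower DEGs. The others were Gm10653, an uncharacterised transcript, and the histone genes Hist1h2bb, Hist1h2bk and Hist1h2ab, which had medians of at most 3.97 CPM.

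Cytosolic ribosomal protein genes followed the same pattern, with 79 of 92 lower and 1 higher by the total on genes (91 and 0 with TMM) and a median 0.62 below that of all genes. Among all genes tested 12.01% were lower and 63.4% higher by the total on genes, and 31.2% and 33.7% with TMM. Rpl30, Rps29 and Rpl26 fell by 0.79, 0.71 and 0.69. Among the 78 genes of the mitochondrial ribosome, 44 were lower and 12 higher, and with TMM 68 were lower and 1 higher. Mrps18c, Mrpl41 and Mrps12 fell by 0.57, 0.54 and 0.53, while Mrpl18 rose by 0.68, from 25.7 to 30.7 CPM in FR to 39.0 to 52.1 CPM. Translation initiation factors were divided and their majority turned with the scaling, 29 higher and 14 lower by the total on genes and 11 higher and 28 lower of 54 with TMM. Their median lay 0.16 below that of all genes, of which 63.4% were higher by the total on genes. The summed share of these factors was 0.344% to 0.387% of counts in FR and 0.406% to 0.464% in FR > FFPE. It was higher in 12 of 12 mice (exact sign-flip permutation test, adjusted p = 0.00076). Eif4ebp2, a repressor of cap-dependent translation, Eif4g3, a scaffold of the cap complex, and Eif1, which guards start codon choice, rose by 0.85, 0.77 and 0.73. Their groups did not overlap. The eIF3 subunits Eif3k, Eif3m and Eif3i fell by 0.49, 0.47 and 0.43. Replication-dependent histone genes, whose messages carry no poly(A) tail, were lower in 18 of 46 and higher in 3 (37 and 0 with TMM). Some histone copies are near-identical and share reads.

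**Figure D3:**
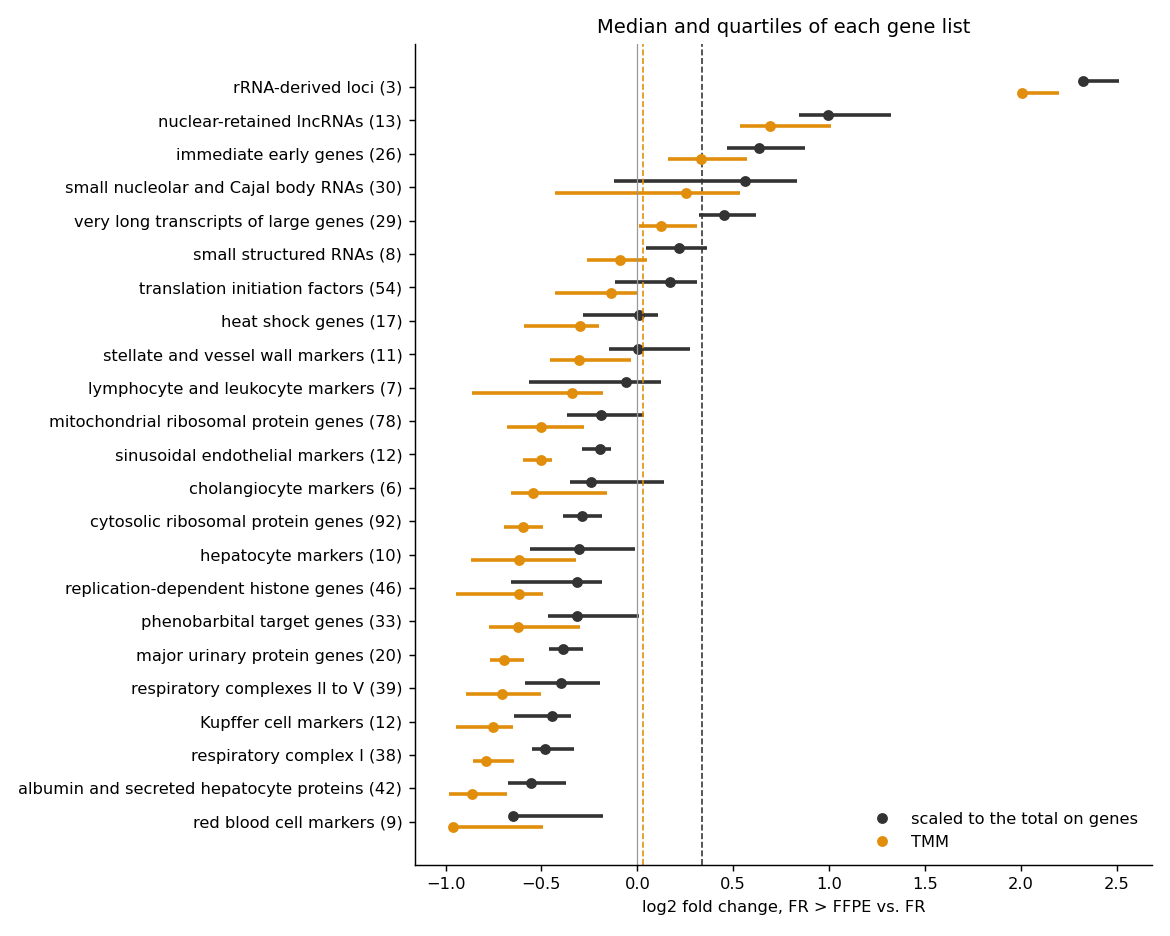
Median (points) and quartiles (bars) of the log2 fold change of FR > FFPE vs. FR (x axis) for each gene list with at least 3 genes tested, scaled to the total on genes or with TMM, with the number of genes tested in brackets and dashed lines at the medians of all genes (0.34 and 0.03). rRNA-derived loci, nuclear lncRNAs and immediate early genes lie furthest to the right of the dashed lines, and red blood cell markers, secreted hepatocyte proteins and complex I furthest to the left.

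Immediate early genes, which cells switch on within minutes of a stimulus, were higher. Of 26 tested, 21 passed as higher and 0 as lower by the total on genes (1 DEG), and 17 and 0 with TMM, beside 63.4% and 33.7% of all genes higher. Their median lay 0.30 above that of all genes, and their summed share was 0.0164% to 0.0263% of counts in FR and 0.0270% to 0.0404% in FR > FFPE. Jund, a subunit of the AP-1 factor, had 11.8 to 21.2 CPM in FR (median 15.3) and 23.3 to 52.2 CPM in FR > FFPE (median 29.5). The groups did not overlap, and the log2 fold change was 0.99 (0.68 with TMM). Egr1, a zinc finger factor, rose by 1.01 and Zfp36, which destabilises AU-rich messages, by 0.92, both in 12 of 12 mice with overlapping groups. Egr1 ran from 1.06 to 31.2 CPM in FR alone, and its log2 fold change in Con mice was −0.43 in the fit with lane number.

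Of 17 heat shock genes, 8 were lower and 3 higher (14 and 1 with TMM), where 12.01% of all genes were lower and 63.4% higher (31.2% and 33.7% with TMM). Their median lay 0.33 below that of all genes. The chaperones of the endoplasmic reticulum Hspa5 and Hsp90b1 fell by 0.56 and 0.40, at medians of 1261 and 1175 CPM in FR. Bag3, a co-chaperone, rose by 0.56 from a median of 15.3 CPM to 23.8 CPM (0.25 with TMM).

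Genes that phenobarbital induces through the receptor CAR, or that handle drugs, were mostly lower, 20 of 33 by the total on genes with 2 higher, and 27 and 0 with TMM, where 12.01% and 31.2% of all genes were lower. Their median lay 0.65 below that of all genes. Ces2a, a carboxylesterase, fell by 0.69, Gstm2, a glutathione S-transferase, by 0.56 and Cyp2c29, a cytochrome P450, by 0.55, each in 12 of 12 mice. Cyp2c29 had medians of 2601 CPM in FR and 1649 CPM in FR > FFPE, and its fall was 0.52 in Con and 0.57 in PB mice (interaction −0.05, edgeR adjusted p = 0.881, SE 0.09).

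The long messages of large genes were higher, 25 of 29 tested and 0 lower, or 16 higher and 3 lower with TMM, where 63.4% and 33.7% of all genes were higher. Their median lay 0.12 above that of all genes (0.095 with TMM). Kmt2d, a histone methyltransferase, had 56.5 to 114 CPM in FR (median 89.5) and 236 to 439 CPM in FR > FFPE (median 282), a log2 fold change of 1.74 (edgeR adjusted p = 3.87e-18, SE 0.07; 1.43 with TMM). Its groups did not overlap, nor did those of Kmt2a, a related methyltransferase, which rose by 1.06, or Syne1, a giant protein of the nuclear envelope, which rose by 0.80.

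Across protein-coding genes the fold change followed transcript length, and also GC content. Lengths and GC contents of 12568 such genes came from their GENCODE transcripts. The genes were put in 10 groups of equal size by each measure. In the group of the shortest transcripts (216 to 1278 bases) the median log2 fold change was −0.18 (−0.49 with TMM), and in the longest (6537 bases and more) it was 0.51 (0.20 with TMM). Spearman's rho across genes, which are not independent replicates, was 0.45. GC content made little difference up to 53.9% (medians of 0.26 to 0.32 by group), and the medians rose above it. The group with the highest GC content (58.2% and more) had a median of 0.60 against 0.27 in the group with the lowest, and rho was 0.18.

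With abundance in FR the relation had the opposite sign (rho −0.19), with 0.49 in the lowest group and 0.11 in the highest. The FR level is also the base of the fold change, so spread in FR alone gives a relation of this sign. With 3 classes of length crossed with 3 of GC content, short transcripts of low GC content had a median of 0.01 and long transcripts of high GC content 0.72, which is −0.30 and 0.41 with TMM. The lower DEGs by TMM had a median length of 787 bases, the higher DEGs 3014 bases and all tested genes 2992 bases. The higher DEGs by TMM had a median GC content of 56.6% and the lower DEGs 53.9%, where all genes had 50.1%. By the total on genes it was 55.4% in the higher DEGs and 55.9% in the 6 lower DEGs.

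**Figure D4:**
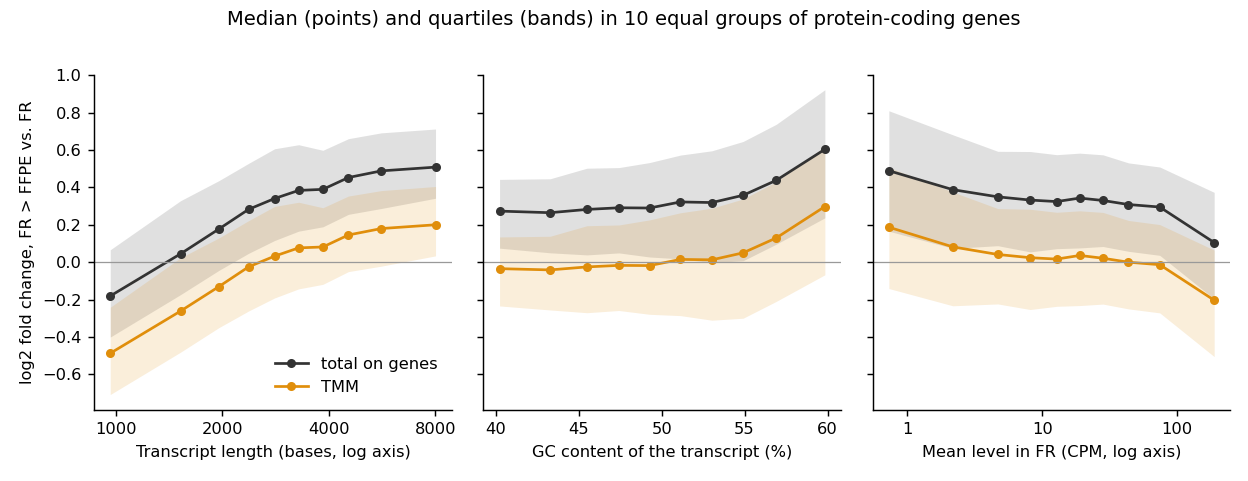
Median (points) and quartiles (bands) of the log2 fold change of FR > FFPE vs. FR (y axis) in 10 equal groups of 12568 protein-coding genes by transcript length, GC content and mean level in FR (x axes, at the median of each group), scaled to the total on genes or with TMM. The medians climb from −0.18 to 0.51 with length, climb in the 3 groups of highest GC content and drop to 0.11 in the most abundant group.

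Markers of liver cell types were checked beside these groups. For comparison, 12.01% of all genes tested were lower and 63.4% higher by the total on genes, and 31.2% and 33.7% with TMM. Hepatocyte markers were present at high levels in both preparations, summing to 46254 to 98415 CPM in FR and 34572 to 70703 CPM in FR > FFPE, and 7 of 10 were lower and 2 higher. Apoa1 fell by 0.75, while Hnf4a, the hepatocyte transcription factor, rose by 0.53 (0.22 with TMM), from 395 to 593 CPM in FR to 628 to 827 CPM. Kupffer cell markers were lower in 11 of 12 (12 with TMM), among them the complement genes C1qa and C1qb, which fell by 0.82 and 0.66, and Folr2, by 0.65. They summed to 374 to 878 CPM in FR and 300.5 to 653 CPM in FR > FFPE.

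Red blood cell markers were lower in 7 of 9 and higher in 1, with a median 0.99 below that of all genes, and they summed to 455 to 1453 CPM in FR and 266 to 1156 CPM in FR > FFPE. Here too the all-gene shares were 12.01% lower and 63.4% higher by the total on genes, and 31.2% and 33.7% with TMM. Hbb-b1, a beta globin whose reads may be shared with its copies, fell by 0.66. Sinusoidal endothelial markers were lower in 7 of 12 and higher in 1 (12 and 0 with TMM), among them Clec4g, Oit3 and Kdr, at −0.48, −0.46 and −0.32. Stellate and vessel wall markers were divided, 4 higher and 3 lower (1 and 5 with TMM). Their median log2 fold change was 0.001 by the total on genes and −0.31 with TMM. The 3 lower included Dcn and Tagln, which fell by 0.53 and 0.56, and the 4 higher are not named here. Of 6 cholangiocyte markers tested, Sox9 rose by 0.79 (−0.03 in Con mice in the fit with lane number) and Spp1 fell by 0.46.

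The summed shares of hepatocyte and Kupffer cell markers were lower in 12 of 12 mice (exact sign-flip permutation test, adjusted p = 0.00076 for each), those of red blood cell markers in 11 (exact, adjusted p = 0.0062) and those of cholangiocyte markers in 10 (exact, adjusted p = 0.0083). For endothelial, stellate and leukocyte markers the difference did not pass the threshold (exact sign-flip permutation test, adjusted p = 0.113, 0.126 and 0.493). The sums of leukocyte markers were 20.5 to 49.3 CPM in FR and 23.5 to 42.2 CPM in FR > FFPE. Of 7 leukocyte markers tested, 2 were lower and 2 higher by the total on genes, and 2 and 0 with TMM. Of all genes 12.01% were lower and 63.4% higher by the total on genes, and 31.2% and 33.7% with TMM. S100a8 and S100a9, neutrophil genes at medians of 1.56 and 1.71 CPM in FR, fell by 0.91 and 0.88, in 9 and 11 of 12 mice. The 2 higher markers did not pass with TMM and are not named. Of 10 pancreas markers 5 were at 0 in all 24 libraries. The part that cell composition had in the changes above was not tested.

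The other embedded preparations of the same livers show where FR > FFPE stood. FFPE is tissue put into the same fixative fresh, and FR > OH is tissue frozen and then fixed in 70% ethanol, both embedded in paraffin, with 12 libraries each. rRNA-derived loci took 3.30% ± 0.81 of counts in FR > FFPE, 10.8% ± 1.41 in FFPE and 4.94% ± 1.19 in FR > OH (SD, n = 12), beside 0.688% ± 0.249 in FR. FR > FFPE was below FFPE in 12 of 12 mice (exact sign-flip permutation test, two-sided, adjusted p = 0.00146 over 12 such tests) and below FR > OH in 11 of 12 (adjusted p = 0.00251). Nuclear-retained lncRNAs took 1.92% ± 0.165 of counts in FR > FFPE, less than the 2.38% ± 0.291 of FFPE in 11 of 12 mice (exact permutation test, adjusted p = 0.00195) and more than the 1.69% ± 0.267 of FR > OH in 10 of 12 (exact permutation test, adjusted p = 0.015).

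Secreted hepatocyte proteins took 18.4% of counts in FR > FFPE, more than in FFPE (14.7%, in 12 of 12 mice, adjusted p = 0.00146) and less than in FR > OH (21.0%, in 11 of 12, adjusted p = 0.00195). Complex I genes took 0.156% of counts, against 0.114% in FFPE (higher in 12 of 12 mice, adjusted p = 0.00146) and 0.152% in FR > OH, where the difference of 0.00483 ± 0.0104 percentage points (SD) did not pass (exact permutation test, adjusted p = 0.142). Immediate early genes took 0.0315% of counts, slightly less than the 0.0333% of FFPE in 9 of 12 mice (exact permutation test, adjusted p = 0.015). The difference from the 0.0307% of FR > OH was 0.000817 ± 0.00422 percentage points and did not pass (adjusted p = 0.507).

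**Figure D5:**
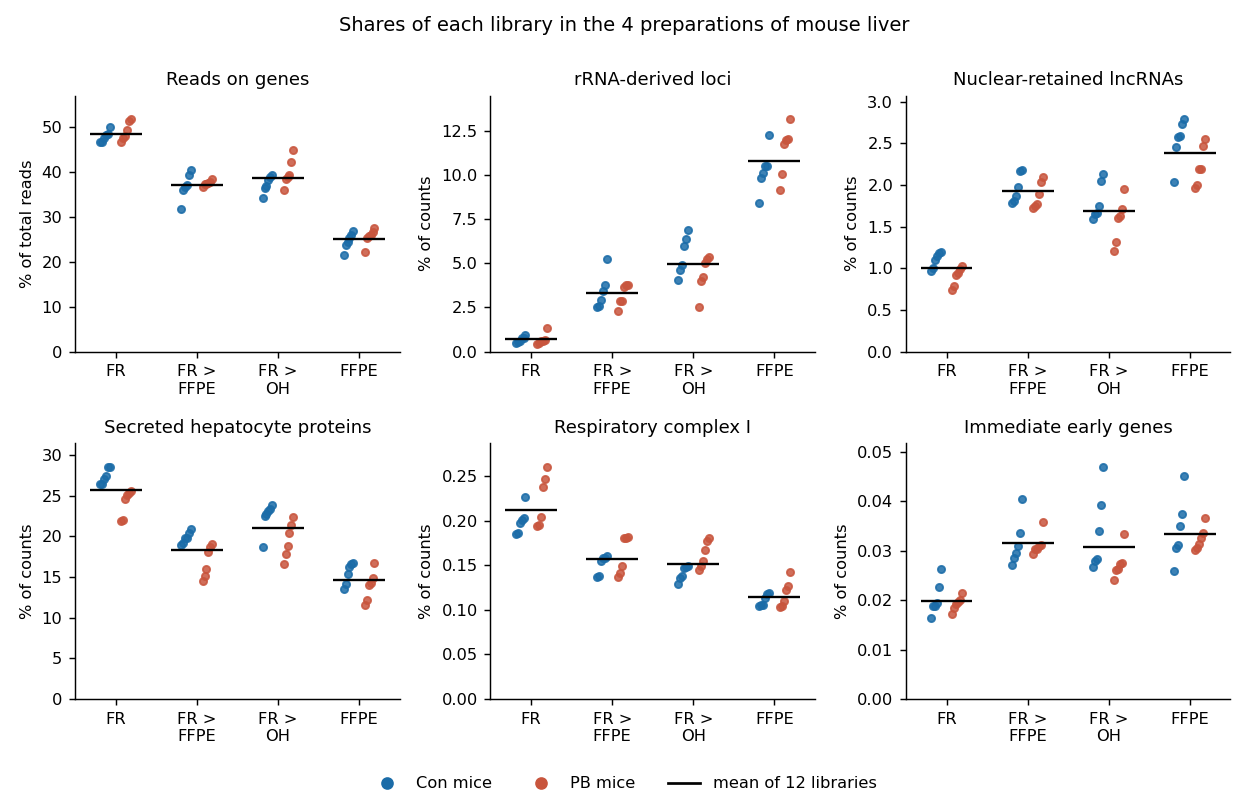
Share of each library (y axes, in percent of total reads for reads on genes and in percent of counts on genes for 5 gene lists) in the FR, FR > FFPE, FR > OH and FFPE preparations of 12 mice, with 1 point per library and a bar at the mean of 12. FR > FFPE has more rRNA-derived and nuclear-retained RNA than FR, with means of 3.30% against 0.688% and 1.92% against 1.00%, and lies between FR and FFPE in both.

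Gene by gene, FR > FFPE vs. FFPE gave 86 DEGs (31 higher and 55 lower in FR > FFPE, 0.643% of genes), and TMM gave 86 as well (28 and 58). The inferred total reads as library size turned the comparison to 976 DEGs (7.30%), 967 of them higher. Counts on genes were 37.2% of these total reads in FR > FFPE and 25.1% in FFPE. Mir6236, Lars2 and Rn45s were lower than in FFPE, by 3.21, 2.10 and 1.72 on the log2 scale. FFPE libraries had medians of 312, 2665 and 102243 CPM for these loci. Oaz1-ps, a pseudogene, Sfrp1, a Wnt inhibitor, and Snora26 were also among the largest differences, at medians of at most 2.07 CPM in FR > FFPE. Among the genes higher than in FFPE, Akr1b7, Gm21975, Gm38431, Raet1d and Gm10653 had medians of at most 2.20 CPM in FR > FFPE. Atp5k, Cox7c and Alb were higher than in FFPE, by 0.99, 1.17 and 0.63.

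Against FR > OH there were 21 DEGs (19 higher, 2 lower, 0.157% of genes), 6 with TMM (0.0449%) and 11 with total reads (0.0823%). Mup10 was higher in FR > FFPE by 1.35 on the log2 scale (SE 0.10, fit to 48 libraries, edgeR adjusted p = 7.77e-15; 1.24 with TMM), at a median of 663 CPM against 238 CPM. The other named rises, Pcdhb19, Fam109b, Eda2r and 4930511A08Rik, had medians of at most 1.28 CPM. The 2 lower genes were Gm10653, at −1.31, and Hspa1a, an inducible heat shock protein, at −1.18, with medians of 0.40 and 1.43 CPM in FR > FFPE. By the trends over length and GC content, with TMM, the median of the most GC-rich group was −0.23 against FFPE and −0.15 against FR > OH, and that of the least GC-rich group 0.21 and 0.16. The group of the longest transcripts was at −0.09 against FFPE and at 0.10 against FR > OH.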

How the data were processed

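The authors sequenced 2×50-base reads on an Illumina HiSeq and used CASAVA 1.8.2 to turn base calls into FASTQ files. They aligned the reads to mm10 (GRCm38) with STAR 2.5.3a and quantified RefSeq transcripts in Partek by expectation maximization. The deposited table holds these estimated counts for 24543 genes, of which 92% of the values were whole numbers, and a second deposited table holds log2 CPM. The divisor of these CPM was taken to be the total reads of each library. It was inferred as the median ratio of count to CPM over abundant genes. Gene coordinates are those of the count table, with its end positions shifted by 1 base, since they lie 1 base past the annotated ends of Malat1 and Mir6236.

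Here the counts were rounded and the 13370 genes with a geometric mean over 1 count (offset 0.0001) were kept. The model of edgeR 4.0.16 (R 4.3.3) took 24 libraries, with mouse as a block and separate preparation terms for Con and PB mice, with the column total on genes as library size and p-values adjusted by Benjamini-Hochberg over all genes tested. Comparisons with FFPE and FR > OH used all 48 libraries of mouse liver. Shares of a library were compared by flipping the signs of the 12 paired differences in all 4096 ways, where the smallest p is 0.000488. Lists were described by counts and medians and not tested. Alternatives used TMM, total reads, DESeq2 1.42.0, limma 3.58.1 on the authors' log2 CPM, other filters, equal depth, lane number, no mouse block and leaving out each mouse.

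Members, lists and rules were chosen with earlier results of these data known. Named genes are the 10 largest rises and falls among genes with at least 10 CPM in either preparation that passed the test and moved alike in 12 mice, the 10 most abundant genes of FR, up to 3 rises and 3 falls of each list, members of the RNA lists, and the 5 largest differences in each direction from FFPE and FR > OH. One of the rises is not reported here. List members higher by the total on genes but not with TMM were counted and not named, and of genes with identical counts 1 was named. From the ribosomal protein list Rps6kl1 and Rps19bp1, which code for no ribosomal protein, were removed after the files were seen. Mitochondrially encoded genes were not in the table. Lengths and GC contents came from GENCODE M21, using the principal transcript of each gene, with 98.0% of tested genes matched by symbol.

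Pairing of libraries by mouse was tested over 7850 genes. Deviations from the group means correlated at 0.653 or more between FR and FR > FFPE of the same mouse (median 0.727, 12 of 12 pairs over 0.1), with a median of −0.134 between different mice. No 2 libraries of the same preparation and treatment agreed within sampling noise (smallest chi-square per degree of freedom 8.77). The steps were tested on simulated data. The mice of a group are separate animals, and counting error covers reads, not molecules. Columns of the authors' own comparisons were not used.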

Additional observations from a re-analysis of the deposited data

Results flagged for a closer look

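Of 180 groups of 6 libraries tested for a value far from the others (a gap to the nearest library of over 0.625 of the group's range), 12 were marked, or 6.67%, where chance marks about 1 in 20. Library FR > FFPE Con mouse 21C had the lowest total of its group, 5534973 counts on genes (next 8812962), and the highest Lars2 and Fam193b, at 1044 and 137 CPM (next 665 and 71.5 CPM).

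Library FR PB mouse 75C was the highest of its group in several RNAs that rose in FR > FFPE. Its rRNA-derived share was 1.33% of counts (next 0.651%), with 13055 CPM of Rn45s (next 6384), 266 CPM of Lars2 (next 115) and 28.9 CPM of Mir6236 (next 8.48). It also had 253 CPM of Kcnq1ot1 (next 175). Without mouse 75C, 928 genes were DEGs of FR > FFPE vs. FR.

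The FR library of Con mouse 8C was the highest of its group in Kcnq1ot1 (299.7 CPM, next 212) and Meg3 (1.96 CPM, next 1.26). C1qa was highest in FR > FFPE Con mouse 82B (41.3 CPM, next 29.3), and Tmem205 was lowest in FR Con mouse 90C (229 CPM, next 241).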

How the results depend on the processing

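The 883 DEGs of FR > FFPE vs. FR became 362 with TMM, 342 with total reads, 382 with DESeq2, 384 with limma on the authors' log2 CPM, 559 when required in Con and in PB mice and 10083 by adjusted p alone. Leaving out 1 mouse gave 830 (without 21C) to 934 (without 8A). Without the mouse block the count was 874, and it changed by less than 1.5 times for each comparison (744 in Con, 1075 in PB, 71 vs. FFPE and 17 vs. FR > OH). The 766 DEGs of Con mice became 356 with TMM and 319 with total reads, and the 1115 of PB mice 499 and 516. Total reads gave 976 DEGs against FFPE. Against FR > OH, TMM gave 6 and total reads 11. TMM without mouse 21C, chosen after seeing the data, gave 342 DEGs. Other filters, equal depth and totals without genes over 1% gave 736 to 1047. The interaction had 0 genes under each setting run. Shares of higher calls moved with the scaling as given beside them, and the cause of the changed counts was not tested.

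Of the genes named, Rmrp (0.05) turned to −0.26 with TMM and DESeq2, −0.33 with total reads and −0.27 with TMM without 21C. Rpph1 (0.03) turned to −0.28 with TMM and DESeq2, −0.35 with total reads, −0.027 without 21C and −0.34 with TMM without 21C. Apob (−0.01) was 0.00 without 21C (0.0029). With lane number in place of mouse, an alternative run for named genes after seeing the data, the Con log2 fold changes that turned were Apob 0.022, Mup7 0.029, Gm2083 0.41, Mup15 0.21, Rmrp −0.077, Rpph1 −0.069, Egr1 −0.43 and Sox9 −0.032. Rian lost its call with TMM (0.26), total reads (0.20) and DESeq2 (0.24). List medians against all genes moved by at most 0.022 with TMM or total reads and by at most 0.066 without 21C, apart from that of small nucleolar and Cajal body RNAs, which fell from 0.22 to 0.062 without 21C. Depth limits genes near 1 CPM, where the smallest library holds about 5.53 counts.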
